A study of Caenorhabditis elegans with 15 samples.

Results

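The zig genes of Caenorhabditis elegans encode small proteins with a pair of immunoglobulin domains, most of them predicted to be secreted and some held in the membrane. The 10 genes described here, zig-1 to zig-8, zig-10 and zig-11, were taken by name from a table of raw gene counts, and each had its own row among 46756 listed genes, of which 31569 had at least 1 count. RNA was sequenced from whole worms of 5 strains with 3 libraries each, 15 in all. The strains were the laboratory wild type N2, the neurexin mutants nrx-1 (ok1649) and nrx-1 (tm1961), whose deletions affect the long alpha isoforms, and the neuroligin mutants nlg-1 (ok259), a full knockout, and nlg-1 (tm474), which carries a deletion in the locus. Worms of every strain were young adults collected 48 h after the first larval stage at 20 °C, in pools of about 20000 per library from independent preparations. The ok alleles and N2 came from the Caenorhabditis Genetics Center and the tm alleles from the National BioResource Project of Japan. The tm1961, ok259 and tm474 strains had not been backcrossed before sequencing, so other mutations that they may carry cannot be told apart from the named allele.

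Neurexin and neuroligin are adhesion proteins that face each other across synapses. Several zig genes are known for the upkeep of the layout of the nervous system: zig-3 and zig-4 keep axons of the ventral nerve cord in position after development, and zig-5 and zig-8 act with SAX-7, the worm homolog of the adhesion protein L1CAM, to keep neurons in place. Many zig genes are expressed in PVT, a single neuron at the rear of the ventral cord, while zig-10 is a membrane protein of the epidermis and of cholinergic neurons that maintains synapse density. In bulk RNA from whole worms, fewer cells of a type and less RNA per cell cannot be told apart.

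The zig genes are scattered in the genome (WBcel235). On the X chromosome lie zig-2 (12340377 to 12341438), zig-6 (5186916 to 5189077), zig-4 (7925434 to 7926595) and zig-3 (7930750 to 7931808), and the last pair stand head to tail on the plus strand with 4154 bases between them. Chromosome I holds zig-1 (9847406 to 9850082) and zig-7 (4790644 to 4792483). Chromosome III holds zig-5 (10951119 to 10953508) and zig-8 (13119820 to 13133938). Chromosome II holds zig-10 (6398706 to 6401007) and chromosome V zig-11 (1875478 to 1892939). Their summed exon length ran from 747 bases for zig-7 to 1748 for zig-11. Exons of 4 members overlapped exons of a gene on the opposite strand: zig-1 by 63 bases with ensa-1 (6.18% of its exon length), zig-8 by 33 with bre-2 (3.39%), zig-11 by 28 with cct-7 (1.60%) and zig-6 by 1 base with a noncoding RNA gene. Whether the counting used strand is not given in the sources used here, so reads in those stretches could belong to either gene.

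All 10 members had counts in every library, from 3 counts of zig-10 in nlg-1 (tm474) replicate 1 to 4322 counts of zig-11 in N2. Library totals ran from 10152578 to 26211067 counts. Libraries of the same strain differed in make-up. The share of counts on noncoding RNA genes was 4.03 to 5.50% in N2, and in the mutants it was under 8% in 4 libraries (replicate 1 of ok1649, ok259 and tm474, and replicate 3 of tm474) and over 15% in the other 8. As a check of the strains, the targeted genes were counted first. The level of nrx-1 was 9.71 to 11.8 CPM (counts scaled to the size of the library) in N2, 6.59 to 8.81 in ok1649 and 4.02 to 7.90 in tm1961. The level of nlg-1 was 11.1 to 18.0 CPM in N2, 8.15 to 10.2 in ok259 and 1.35 to 6.76 in tm474. All libraries of each mutant were below all N2 libraries for their own gene. The means of both genes were also below N2 in the strains mutant for the other gene: nlg-1 was at 6.65 ± 4.81 CPM (SD, n = 3) in ok1649 and 7.81 ± 7.96 in tm1961, both under the 9.06 ± 1.02 of ok259, and nrx-1 was at 8.91 ± 1.40 in ok259 and 8.73 ± 2.79 in tm474 against 10.6 ± 1.03 in N2. The level of the targeted gene therefore does not identify a strain here. Gene counts do not separate the deleted part from the rest, and none of these differences passed the test described below.

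In N2, the members covered a wide range of levels. Per kilobase of exon, zig-11 stood first at 93.1 ± 18.8 CPM (SD, n = 3), followed by zig-7 at 28.9 ± 11.9 and zig-1 at 12.4 ± 1.96. These 3 ranges did not overlap. Then came zig-5 (5.13 ± 1.16), zig-6 (4.99 ± 1.20), zig-2 (3.62 ± 1.04), zig-4 (2.65 ± 0.051), zig-3 (2.46 ± 1.26) and zig-8 (2.10 ± 0.35), where the ranges of neighbours overlapped except those of zig-2 and zig-4, which just failed to meet. The lowest was zig-10 at 0.456 ± 0.188 CPM per kilobase, which rested on 7 to 17 counts per library. Of the maintenance genes, zig-5 thus came next after the top 3. The genes zig-4, zig-3 and zig-8 ranked directly above zig-10, with means of 2.65, 2.46 and 2.10 against its 0.456.

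**Figure D1:**
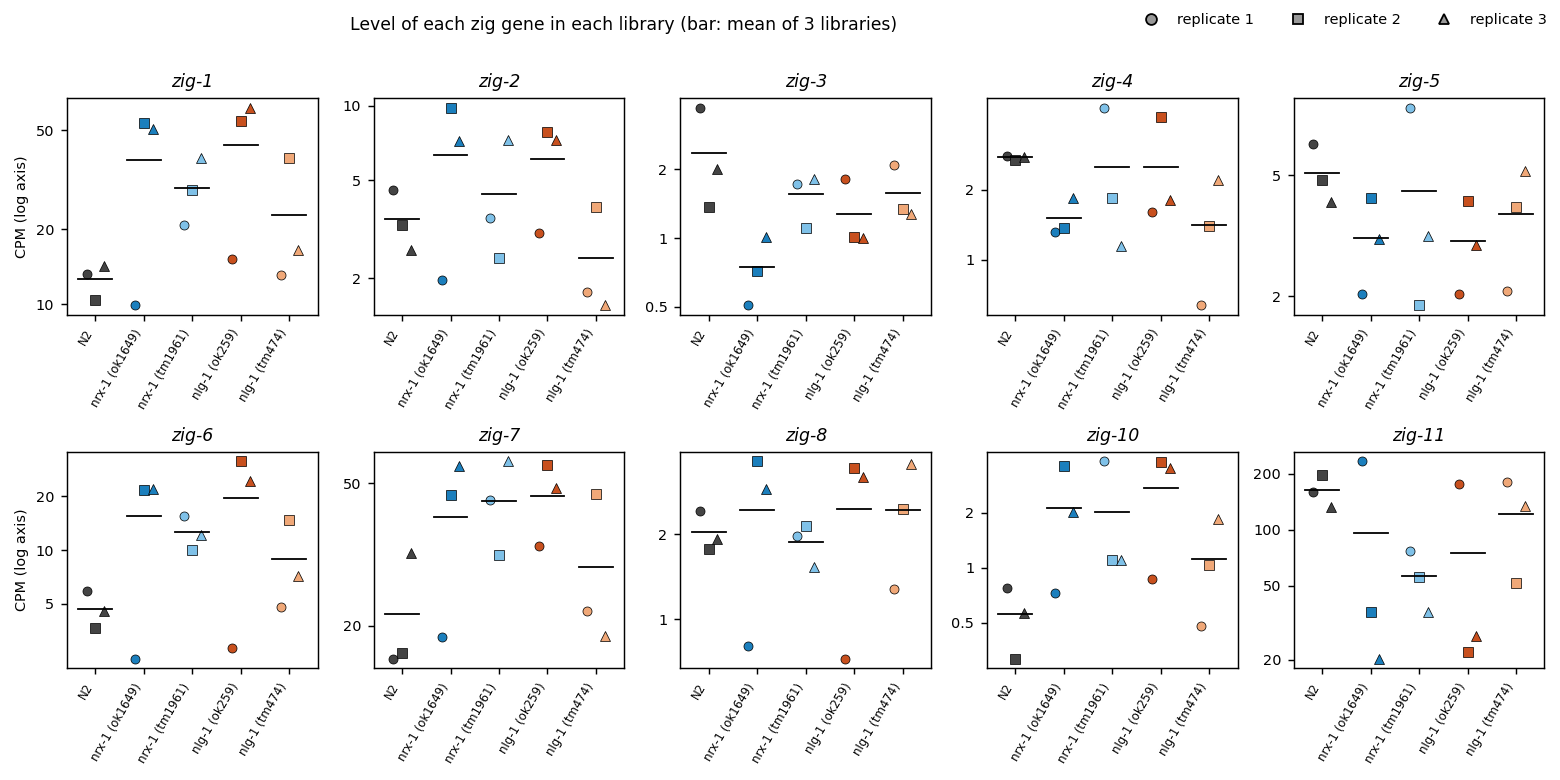
Level of each zig gene in CPM (log axis) in the 15 libraries, by strain, with the 3 replicates as circle, square and triangle and the mean as a bar. For zig-1, zig-6 and zig-11, replicate 1 of ok1649 and ok259 lay near N2 while replicates 2 and 3 lay far from it.

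The question of the comparison was which genes change when neurexin or neuroligin is disrupted. Each mutant strain was compared with the same 3 N2 libraries, so the 4 comparisons are not independent of each other. A gene was called when edgeR's quasi-likelihood test, adjusted over all genes tested by the Benjamini-Hochberg method, gave an adjusted p under 0.05 and the log2 fold change was over 1 in size. All 10 members were tested in each comparison, and none was called in any. Of all genes tested, 0.0251% were called in ok1649, and 0.0% in tm1961, 0.0% in ok259 and 0.0% in tm474. At an unadjusted p under 0.05, edgeR gave 3 of 10 members in ok1649 against 18.1% of all genes, 5 of 10 in tm1961 against 34.2%, 2 of 10 in ok259 against 14.2% and 0 of 10 in tm474 against 8.41%. Those higher than N2 were zig-1 and zig-10 in ok1649 (13.0% of all genes were higher), zig-1, zig-6, zig-7 and zig-10 in tm1961 (18.6%), zig-1 and zig-10 in ok259 (6.44%) and none in tm474 (5.2%). Those lower were zig-3 in ok1649 (5.11%), zig-11 in tm1961 (15.6%) and none in ok259 (7.76%) or tm474 (3.21%). DESeq2 called 0, 3, 0 and 0 members in the same order, beside 2.21%, 10.7%, 2.17% and 0.185% of genes. Those shares are of the 28117 to 28747 genes with counts, without the filter on low counts that the edgeR shares used. All 10 members passed that filter, so they and the DESeq2 shares rest on unlike sets of genes. The median log2 fold change of the 10 members was 0.45 in ok1649 (0.16 over all genes), 0.15 in tm1961 (0.11), 0.33 in ok259 (0.032) and -0.11 in tm474 (0.076). An edgeR F test over the 5 strains together called 0 of 10 members, beside 0.0402% of genes. At an unadjusted p under 0.05 it gave 0 of 10, beside 4.71%. The likelihood ratio test of DESeq2 called 0 of 10, beside 0.371% of the 31569 genes with counts, again without the filter. The smallest p of a member in that edgeR test was 0.0910, for zig-10 (adjusted p = 0.924).

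**Figure D2:**
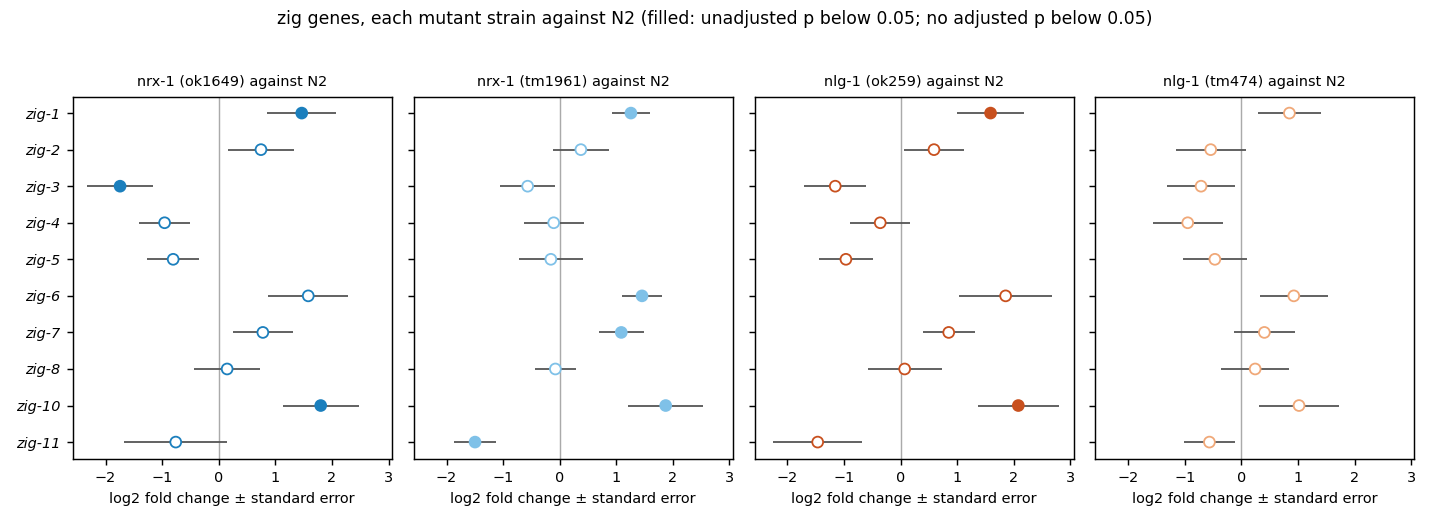
Log2 fold change against N2 with its standard error for the 10 zig genes in each of the 4 mutant strains (edgeR, 3 libraries against 3). Filled points have an unadjusted p under 0.05 and no point has an adjusted p under 0.05, with estimates from -1.75 for zig-3 in ok1649 to 2.08 for zig-10 in ok259.

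The values of zig-3 and zig-4, the axon position genes, were lower in the mutants than in N2 on average in all 4 strains. The level of zig-3 was 3.71, 1.37 and 1.99 CPM in N2 replicates 1, 2 and 3, and 0.510, 0.715 and 1.01 in those of ok1649. All ok1649 libraries were below all N2 libraries, on 7 to 17 counts against 30 to 81. The log2 fold change was -1.75 (SE 0.58, edgeR unadjusted p = 0.0150, adjusted p = 0.217). In tm1961 zig-3 was at 1.11 to 1.82 CPM, in ok259 at 1.00 to 1.81 and in tm474 at 1.28 to 2.08. Each of these ranges overlapped that of N2, with log2 fold changes of -0.57, -1.15 and -0.71 and adjusted p of 0.420, 0.385 and 0.794 by edgeR.

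The level of zig-4, its neighbour on the X chromosome, was 2.79, 2.69 and 2.78 CPM in N2 replicates 1, 2 and 3. These values rest on 61, 59 and 78 counts, and so narrow a range may not hold in further libraries. The level was 1.31, 1.37 and 1.84 CPM in ok1649, on 18 to 31 counts. In tm474 it was 0.640, 1.39 and 2.199 CPM, on 4 to 55 counts. Both strains lay below N2 in all libraries. Together with zig-3 this made 2 members wholly below the N2 range in ok1649, where 7.41% of all genes tested were, and zig-4 was the only one in tm474, where 6.85% were. The log2 fold change of zig-4 was -0.96 in ok1649 (SE 0.45, adjusted p = 0.3001) and -0.95 in tm474 (SE 0.62, adjusted p = 0.697) by edgeR. In tm1961 its levels were 4.50, 1.84 and 1.15 CPM, and in ok259 1.60, 4.12 and 1.80. In each of those strains a single library was above N2 and the rest below, and the estimates were -0.11 and -0.36. The estimate in tm1961 was 0.043 when libraries were scaled by their totals alone.

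The remaining maintenance genes showed no separation from N2. The level of zig-5, which acts with sax-7, was 6.36, 4.84 and 4.09 CPM in N2. It was 2.04 to 4.23 in ok1649, 2.03 to 4.12 in ok259, 1.88 to 8.35 in tm1961 and 2.08 to 5.16 in tm474. All 4 ranges overlapped N2, and the log2 fold changes were -0.81, -0.97, -0.16 and -0.47 in that order (edgeR adjusted p 0.385, 0.405, 0.857 and 0.887).

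The level of zig-8 was 2.42, 1.78 and 1.92 CPM in N2 and 0.726 to 3.63 over the 12 mutant libraries. It was lowest in replicate 1 of ok259 and of ok1649, both under 1 CPM, on 10 and 11 counts. It was highest in replicate 2 of ok1649. Its log2 fold changes were 0.15, -0.076, 0.072 and 0.24 in ok1649, tm1961, ok259 and tm474, all smaller than their SE of 0.58, 0.36, 0.65 and 0.60. The sign in tm1961 turned to 0.079 when libraries were scaled by their totals alone.

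zig-1, a PVT gene whose product is predicted to span the membrane, had higher values in the mutants. Its level was 13.2, 10.4 and 14.3 CPM in N2, and 20.8, 28.7 and 38.6 in tm1961, where all libraries were above N2. In ok1649 it was 9.92, 53.7 and 50.7 CPM, and in ok259 it was 15.2, 54.5 and 61.7. Replicate 1 of ok1649 was below all N2 libraries and that of ok259 just above them, while the other libraries of both strains were far above. In tm474 the values were 13.1, 38.8 and 16.4 CPM, with replicate 1 inside the N2 range. The log2 fold changes were 1.47 in ok1649 (SE 0.61, adjusted p = 0.254), 1.26 in tm1961 (SE 0.34, adjusted p = 0.0762), 1.59 in ok259 (SE 0.59, adjusted p = 0.319) and 0.85 in tm474 (SE 0.56, adjusted p = 0.705) by edgeR.

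zig-6 followed the same libraries. Its level was 5.90, 3.65 and 4.55 CPM in N2 and 15.5, 10.1 and 12.2 in tm1961, all above N2. It was 2.48, 21.7 and 22.01 CPM in ok1649, 2.83, 31.3 and 24.2 in ok259, and 4.80, 14.8 and 7.20 in tm474. Replicate 1 of ok1649 and ok259 was below every N2 library and their other replicates were above every one. The log2 fold changes were 1.58, 1.45, 1.86 and 0.93 in ok1649, tm1961, ok259 and tm474, with SE of 0.71, 0.35, 0.82 and 0.61 and edgeR adjusted p of 0.283, 0.0745, 0.359 and 0.702.

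The level of zig-7, the second highest member per kilobase in N2, was 16.2, 16.8 and 31.9 CPM there and 33.4, 56.3 and 48.3 in ok259, with no overlap. In tm1961 it was 44.9, 31.6 and 57.5, and replicate 2 fell just inside the N2 range. In ok1649 it was 18.6 to 55.95 and in tm474 18.7 to 46.7, both overlapping N2. The log2 fold change was 0.85 in ok259 (SE 0.46, adjusted p = 0.441) and 1.09 in tm1961 (SE 0.40, unadjusted p = 0.0271, adjusted p = 0.109) by edgeR.

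zig-10, the synapse density gene, had the highest estimates of the members in all 4 strains, on 3 to 82 counts per library. Its level was 0.778, 0.319 and 0.569 CPM in N2, and 3.80, 1.11 and 1.10 in tm1961. In ok259 it was 0.871, 3.75 and 3.51 CPM. All libraries of both strains were above N2. In ok1649 (0.729, 3.57 and 2.02 CPM) and tm474 (0.480, 1.03 and 1.84 CPM) replicate 1 lay inside the N2 range. The log2 fold changes were 1.80 in ok1649 (SE 0.67), 1.87 in tm1961 (SE 0.66), 2.08 in ok259 (SE 0.72) and 1.02 in tm474 (SE 0.71), with edgeR adjusted p of 0.231, 0.103, 0.306 and 0.732.

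The level of zig-2 was 2.60 to 4.57 CPM in N2, 1.97 to 9.83 in ok1649, 2.41 to 7.28 in tm1961, 3.05 to 7.87 in ok259 and 1.56 to 3.90 in tm474. The ranges of all 4 mutants overlapped N2. Its log2 fold change was 0.75, 0.37, 0.59 and -0.54 in that order, with SE of 0.59, 0.49, 0.53 and 0.62.

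zig-11, the most abundant member in N2, was lower in most mutant libraries. Its level was 159.2, 197.2 and 131.7 CPM in N2 and 77.1, 55.5 and 36.1 in tm1961, where all libraries were below N2. In ok1649 it was 233.1, 35.97 and 20.3 CPM, an 11.5-fold range within the strain, and in ok259 it was 175.2, 22.1 and 26.7. In tm474 it was 180.1, 51.5 and 134.6 CPM. Replicate 1 of ok1649 exceeded all N2 libraries, that of ok259 and of tm474 lay inside the N2 range, and replicates 2 and 3 of ok1649 and ok259 were the 4 lowest of the 15 values. The log2 fold change was -1.50 in tm1961 (SE 0.37, adjusted p = 0.0745), -0.76 in ok1649 (SE 0.91, adjusted p = 0.728), -1.46 in ok259 (SE 0.79, adjusted p = 0.437) and -0.57 in tm474 (SE 0.45, adjusted p = 0.779) by edgeR.

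Counted over members, zig-1, zig-6 and zig-10 lay wholly above the N2 range and zig-11 wholly below it in tm1961, where 18.0% of all genes lay above and 21.1% below. zig-1, zig-7 and zig-10 lay wholly above in ok259, where 15.8% of all genes did, and no member lay wholly below there (7.49%). In ok1649 no member lay wholly above N2 (15.9% of genes did), nor did any in tm474 (8.2%). In the order of strain means, every strain overlapped the next one for every member, so no full order of the 5 strains was resolved. Strains further apart in that order could still separate, as zig-1 in ok259 did from N2.

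In tm1961, libraries with the same replicate number as an N2 library deviated together from their group means (correlations over genes of 0.673, 0.182 and 0.633), and when the replicate numbers entered the model as a block edgeR called 5 of 10 members, beside 31.5% of all genes. In that fit zig-1 rose by a log2 fold change of 1.23 (adjusted p = 0.0205), zig-6 by 1.46 (adjusted p = 0.0110), zig-7 by 1.11 (adjusted p = 0.0235) and zig-10 by 1.72 (adjusted p = 0.0246), and zig-11 fell by 1.54 on the log2 scale (adjusted p = 0.0108), all by edgeR. DESeq2 without the block called zig-1, zig-6 and zig-11, and so did edgeR without tm1961 replicate 1 (36.5% of all genes), where the log2 fold changes were 1.44, 1.26 and -1.81. Over the 14 alternatives run, the adjusted p in tm1961 ran from 0.0161 to 0.845 for zig-1, from 0.0110 to 0.507 for zig-6, from 0.0235 to 0.833 for zig-7, from 0.0246 to 0.628 for zig-10 and from 0.00895 to 0.528 for zig-11.

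In ok1649 and ok259 a single library decided the calls. Without ok1649 replicate 1, edgeR called 6 of 10 members beside 45.8% of all genes: zig-1 (log2 fold change 1.85), zig-2 (1.10), zig-6 (2.02) and zig-10 (2.12) were higher than in N2, and zig-3 (-1.64) and zig-11 (-2.73) were lower. Their adjusted p in that fit ran from 0.00431 for zig-1 to 0.0458 for zig-3, and over the 14 alternatives up to 0.771 for zig-1 and 0.706 for zig-3. Without ok259 replicate 1, edgeR called 5 of 10 members beside 42.3% of all genes: zig-1 (2.06), zig-6 (2.42), zig-7 (1.14) and zig-10 (2.56) were higher and zig-11 (-2.88) was lower. Their adjusted p in that fit ran from 0.00165 for zig-11 to 0.0277 for zig-7, and over the 14 alternatives up to 0.856 for zig-11. The shares of members called stood near those of all genes, and no member was called in tm474 with any library left out (0.0% of all genes without its replicate 1).

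The levels of several members moved with the share of noncoding counts in the library. The 4 mutant libraries under 8% had zig-11 at 134.6 to 233.1 CPM, and the 8 over 15% had it at 20.3 to 77.1, beside 131.7 to 197.2 in N2. The 8 libraries were all below both other sets, whatever their strain. For zig-1 the 4 libraries were at 9.92 to 16.4 CPM and the 8 at 20.8 to 61.7, and for zig-6 at 2.48 to 7.20 and 10.1 to 31.3. Neither gene overlapped between the sets of libraries, and the 8 were above all of N2. The share of all genes with such a gap was not counted, so it is not shown to be particular to these members. Without replicate 1 of ok1649 or of ok259, which are among the 4, 45.8% and 42.3% of all genes were called against N2. For zig-7 (18.6 to 33.4 against 31.6 to 57.5 CPM), zig-10 (0.480 to 1.84 against 1.03 to 3.80) and zig-2 (1.56 to 3.05 against 2.41 to 9.83) the sets overlapped. zig-3 (0.510 to 2.08 against 0.715 to 1.82), zig-4 (0.640 to 2.199 against 1.15 to 4.50), zig-5 (2.03 to 5.16 against 1.88 to 8.35) and zig-8 (0.726 to 3.56 against 1.53 to 3.63) overlapped over most of their range.

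**Figure D3:**
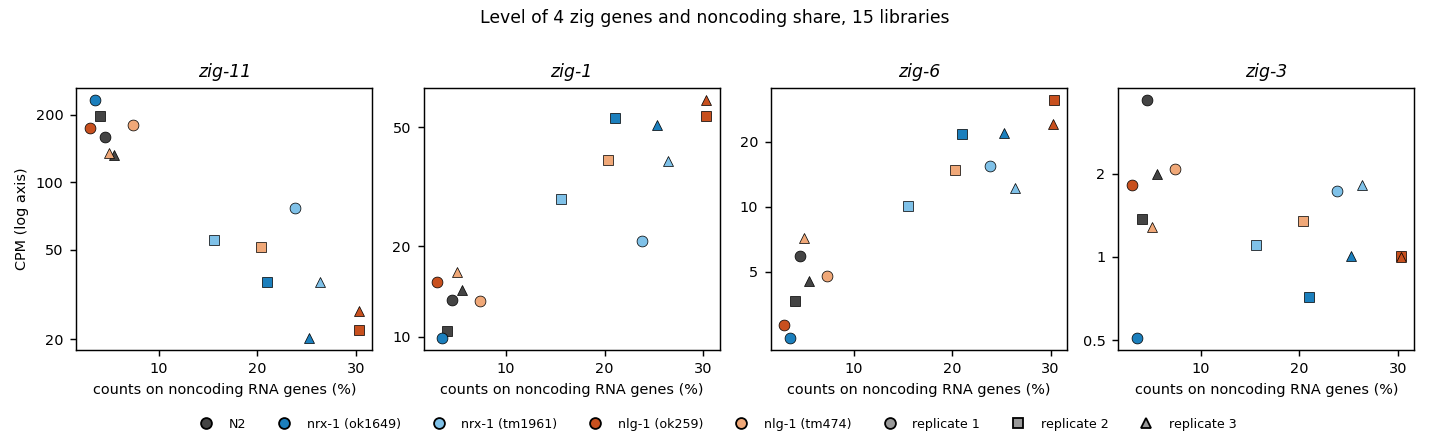
Level of zig-11, zig-1, zig-6 and zig-3 in CPM (log axis) against the percentage of counts on noncoding RNA genes in the same library, coloured by strain with replicates as circle, square and triangle. Libraries over 15% noncoding counts had zig-11 at 20.3 to 77.1 CPM and zig-1 at 20.8 to 61.7, while zig-3 showed no such gap.

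The same sets of libraries differed in markers of tissues and stages, all of whose genes had counts. The summed level of 6 yolk genes was 356.2 to 6799 CPM in the 8 libraries, 8268 to 164271 in the 4 and 8836 to 19972 in N2. That of 7 oocyte genes was 68.8 to 676.0, 1013 to 8955 and 1174 to 1760 CPM, and that of 6 intestinal genes 315.7 to 968.6, 1798 to 2881 and 1246 to 2490. The 4 were not alike. In replicate 1 of ok1649, ok259 and tm474 the yolk genes summed to 120208 to 164271 CPM and the oocyte genes to 7235 to 8955. In replicate 3 of tm474 they summed to 8268 and 1013 CPM. The summed level of 9 epidermal genes was 460.3 to 989.0 CPM in the 8 libraries, 1749 to 4328 in the 4 and 1316 to 1801 in N2. The 8 libraries were below the rest for all 4 lists. That of 13 pan-neuronal genes overlapped, at 309.1 to 678.6, 405.1 to 629.4 and 522.7 to 675.3 CPM. That of 7 body wall muscle genes was 4437 to 9779 CPM in the 8 libraries, 12236 to 23438 in the 4 and 6868 to 15910 in N2, so the 8 lay below the 4 but overlapped N2. The summed levels of the cholinergic, sperm and molting lists overlapped between all 3 sets of libraries. The part of these differences in the levels of the zig genes was not tested, beyond a fit over 15 libraries with the noncoding share as a covariate. In that edgeR fit 27 of the 40 estimates kept their sign and 13 turned. No member was called, beside 0.0345% of all genes in ok1649, 0.0115% in tm1961, 0.00575% in ok259 and 0.0172% in tm474. zig-1 was at 0.34, -0.16, 0.22 and 0.21 in ok1649, tm1961, ok259 and tm474, zig-6 at -0.15, -0.57, -0.47 and 0.098, and zig-11 at -0.089, 0.55, 0.16 and 0.17. The estimates of zig-10 stayed above 0, at 1.004, 0.71, 0.98 and 0.77 in the same order. Those of zig-3 (-1.57, -0.51, -0.82 and -0.58) and zig-4 (-1.12, -0.49, -0.51 and -1.02) stayed below 0, as did those of zig-5, and those of zig-7 stayed above. The tm1961 libraries all held 15.6 to 26.4% noncoding counts, against 4.03 to 5.50% in N2. Between these strains the share and the strain cannot be told apart. The tm1961 estimates of this fit therefore depend on a slope shared with the other strains.

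The make-up of the zig signal shifted between these libraries. zig-11 took 67.1 to 81.4% of all zig counts in N2, 69.9 to 85.9% in the 4 mutant libraries under 8% noncoding counts and 11.7 to 42.3% in the 8 over 15%. The counts of zig-11 were 9.23 to 18.96 times those of zig-1 in N2, 8.19 to 23.5 times in the 4 libraries and 0.400 to 3.71 times in the 8. This ratio within a library does not depend on how libraries were scaled. The 9 members other than zig-11 summed to 45.1 to 64.7 CPM in N2, 38.4 to 61.6 in the 4 libraries and 80.8 to 166.3 in the 8.

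**Figure D4:**
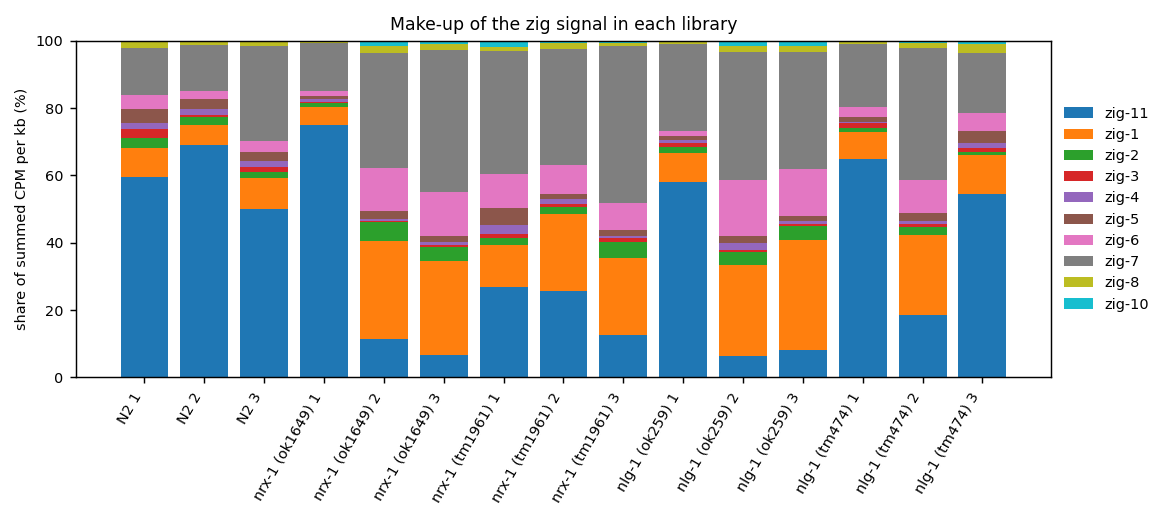
Share of each zig gene in the summed CPM per kilobase of the 10 members, as stacked bars to 100% for the 15 libraries. The share of zig-11 was 49.95 to 68.9% in N2 and 6.36 to 26.8% in the 8 mutant libraries over 15% noncoding counts, where zig-1, zig-6 and zig-7 took most of the rest.

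The genes whose log2(CPM + 1) followed each member most closely over the 15 libraries were sought among 14653 genes with a mean of at least 1 CPM. Pearson's r is given as a description only, since the libraries share strains and fall into the sets above. For zig-11 they were cey-4, a Y-box RNA-binding protein gene (r = 0.991), and lap-2, an aminopeptidase gene (0.991). For zig-1 they were T10B11.5 (0.974) and snt-1, the synaptotagmin gene (0.970). Of the 13 pan-neuronal genes, 5 had edgeR estimates above 0 in ok1649, 4 in tm1961, 5 in ok259 and 4 in tm474. Among those above 0 was snt-1 in ok1649 (1.61) and tm1961 (1.38). zig-6 was followed by nlp-17, a neuropeptide gene (0.980), and F59C6.11 (0.977), and zig-7 by gbh-2 (0.977) and T04A6.1 (0.975). The highest r of the rest was 0.964 for zig-2 (F54C9.3), 0.957 for zig-10 (F32H2.8), 0.945 for zig-8 (B0334.6), 0.908 for zig-4 (icmt-1), 0.897 for zig-5 (F21E9.2) and 0.772 for zig-3 (clec-70).

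The genes that act with or upstream of the zig genes were tested in the same fits, and edgeR called none of them in any strain. Of all genes, 0.0251% were called in ok1649 and 0.0% in each of tm1961, ok259 and tm474, so this is not particular to them. The homeobox genes lim-6 and ceh-14 and the timing gene lin-14 regulate zig genes in PVT, and the estimates of all 3 were below 0 in every mutant strain, as were those of 43% of all genes in ok1649, 46.5% in tm1961, 48.6% in ok259 and 45.2% in tm474. Their summed level was 16.8 to 36.5 CPM in the 8 libraries over 15% noncoding counts, 26.2 to 49.1 in the 4 under 8% and 45.5 to 52.5 in N2. The 8 libraries lay below all of N2 but overlapped the 4, and the part of the noncoding share in this level was not tested. At an unadjusted edgeR p under 0.05, 1 of the 3 genes was lower in tm1961 and 2 were in ok259. None was in ok1649 or tm474. Of all genes, 5.11% were lower at that p in ok1649, 15.6% in tm1961, 7.76% in ok259 and 3.21% in tm474. For ceh-14, which had the smallest p of them in each, the log2 fold change was -1.18 in ok1649, -1.43 in tm1961, -1.98 in ok259 and -1.03 in tm474, with unadjusted p of 0.133, 0.00899, 0.00563 and 0.0844 (adjusted p 0.415, 0.0788, 0.237 and 0.618). Of 7 axon maintenance partners (sax-7, dig-1, egl-15, unc-44, unc-70, spc-1 and stn-2), 1 had an unadjusted p under 0.05, in tm1961: spc-1, the alpha spectrin gene, at -1.38 (edgeR adjusted p = 0.135), in a strain where 15.6% of all genes were lower at that p. The smallest p elsewhere belonged to dig-1 in ok1649 (-0.81), spc-1 in ok259 (-0.92) and sax-7 in tm474 (0.25).

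Of 17 other neuronal immunoglobulin protein genes, 1 was lower at an unadjusted p under 0.05 in ok1649, 3 in tm1961, 1 in ok259 and 0 in tm474, beside 5.11%, 15.6%, 7.76% and 3.21% of all genes. None was higher at that p in any of the strains, where 13.0%, 18.6%, 6.44% and 5.2% of all genes were. The smallest p was that of rig-6, the contactin homolog, in ok1649 (log2 fold change -1.06, edgeR adjusted p = 0.263) and ok259 (-1.07, adjusted p = 0.306), of unc-40, the netrin receptor gene, in tm1961 (-0.86, adjusted p = 0.103) and of wrk-1 in tm474 (-0.51, adjusted p = 0.726).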

How the data were processed

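Strand-specific, rRNA-depleted RNA libraries of 15 whole-worm samples were analysed, 3 for each of 5 strains. The authors deposited raw counts per gene for WBcel235; these deposited counts were used as they stand. Counts were tested with edgeR 4.0.16 (TMM factors, filterByExpr, quasi-likelihood test, Benjamini-Hochberg adjustment over all genes that passed), each mutant strain with N2 in its own fit of 6 libraries, with 15905 to 16268 genes tested, and once over 15 libraries (17395 genes). CPM used TMM factors over the 15 libraries, and exon lengths and biotypes came from Ensembl release 115 (46581 of 46756 gene IDs matched, 175 did not). The noncoding share is the percentage of counts on genes annotated neither as protein-coding nor as pseudogenes. Alternatives were DESeq2 1.42.0, other scalings, no filter, protein-coding genes only, a replicate block, all 15 libraries in 1 fit, the noncoding share as a covariate, and each library left out in turn. All 10 members were named, with the gene of smallest p in each related list and the genes most like each member. The members and lists were chosen with earlier results of these data known. The replicates came from independent preparations, and no pair of libraries of the same strain was as alike as sampling noise allows (smallest chi-square per degree of freedom 28.3). Pairs from different strains were not checked. The fits were tested on simulated data, with changes planted only in genes of higher level. This does not show how well a change in a member of low level would be found.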

Additional observations from a re-analysis of the deposited data

How the results depend on the processing

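Of 40 estimates (10 members in 4 strains), 23 kept their sign under all alternatives. The count of members called, 0 in each comparison, rose to 3 with DESeq2 and to 5 with the replicate block in nrx-1 (tm1961). With libraries left out in turn it ran from 0 to 6 in nrx-1 (ok1649), 0 to 3 in tm1961 and 0 to 5 in nlg-1 (ok259). The block changed no other call, and elsewhere same-numbered libraries did not deviate together in every pair. With the noncoding share as a covariate the log2 fold changes that turned were, in ok1649, zig-2 (-0.20), zig-6 (-0.15) and zig-8 (-0.63); in tm1961, zig-1 (-0.16), zig-2 (-1.001), zig-6 (-0.57) and zig-11 (0.55); in ok259, zig-2 (-0.49), zig-6 (-0.47), zig-8 (-0.98) and zig-11 (0.16); and in tm474, zig-8 (-0.019) and zig-11 (0.17). zig-8 also turned with the replicate block in ok1649 (-0.013) and ok259 (-0.18). With library totals alone zig-4 (0.043) and zig-8 (0.079) turned in tm1961. With libraries left out in turn, zig-2 ran from -0.026 to 1.10 and zig-8 from -0.56 to 0.48 in ok1649. In tm1961 zig-2 ran from -0.17 to 0.67, zig-4 from -0.85 to 0.27, zig-5 from -0.998 to 0.21 and zig-8 from -0.18 to 0.074. zig-8 ran from -0.24 to 0.56 in ok259 and from -0.14 to 0.58 in tm474, where zig-7 ran from -0.28 to 0.78. The cause was not tested, and in tm1961 the noncoding share cannot be told apart from the strain. The median log2 fold change over all genes moved by 0.13 in tm1961, 0.15 in ok259 and -0.14 in tm474 when libraries were scaled by totals alone, and by 0.12 in ok259 with DESeq2 scaling. Counts of 3 to 82 per library limit zig-10. Low counts also limit zig-3 (7 to 17 in ok1649), zig-4 (4 to 55 in tm474) and zig-8 (8 to 89 in tm474).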

Other observations

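The oig genes encode proteins with a single immunoglobulin domain. Of 8 names, 6 matched a row and were tested, and edgeR called none in any strain. Of all genes it called 0.0251% in ok1649 and 0.0% in each other mutant strain. The smallest p belonged to oig-1, which holds back synaptic remodelling in GABA neurons, in ok1649 (log2 fold change 1.83, SE 0.63, adjusted p = 0.221), tm1961 (1.87, SE 0.43, adjusted p = 0.0745) and tm474 (1.27, SE 0.66, adjusted p = 0.619), and to oig-2 in ok259 (1.33, SE 0.53, adjusted p = 0.335). At an unadjusted p under 0.05, 1 oig gene was higher in ok1649 (13.0% of all genes were), 2 in tm1961 (18.6%), 2 in ok259 (6.44%) and 0 in tm474 (5.2%). In the other direction, oig-3 was lower in ok259 (-1.26, SE 0.51, edgeR adjusted p = 0.339, beside 7.76% of all genes lower), and none was in ok1649, tm1961 or tm474 (5.11%, 15.6% and 3.21%).

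The table also held zig-9 and zig-12, which carry zig names but were not among the 10 members. Neither had an unadjusted p under 0.05 in any strain. In ok259, zig-12 lay wholly above N2 (136.0 to 162.0 against 83.8 to 123.1 CPM), as did 15.8% of all genes. The other ranges of zig-9 and zig-12 overlapped N2. The log2 fold changes of zig-9 were -0.19, 0.13, 0.011 and -0.75 in ok1649, tm1961, ok259 and tm474, and those of zig-12 were 0.11, 0.22, 0.22 and 0.28.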
